A study of Mus musculus with 18 samples.

Results

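Genes of cell division were followed through gastruloid differentiation of mouse embryonic stem cells, with and without induction of RNase H1. The set was a named list of 40 genes among the 55401 gene IDs in each table. It held 20 S phase genes, which act in DNA replication or in entry into it, and 20 mitosis genes, which act from G2 to cell separation. All 40 were found by symbol and all passed the filter on low counts. Every library came from the line RHKI, derived from E14Tg2a, which carries an HA-tagged Rnaseh1 knock-in, so the controls carried the knock-in too. Cells had been kept in 2i/LIF medium, and the Dox groups had received doxycycline at 500 ng/ml for 48 h before they were made into gastruloids, aggregates that form tissues of the early embryo. There were 6 groups of 3 poly(A) RNA libraries, with a control and a Dox group at 0 h (day 0), at 72 h (day 3) and at 120 h (day 5). The labels name 1 line, and they do not say whether it is a single clone, which promoter drives the knock-in, whether Dox was continued, or how many gastruloids were pooled.

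The cell cycle runs through G1, S phase, G2 and mitosis. Before S phase, ORC, Cdc6 and Cdt1 load the Mcm2 to Mcm7 ring onto origins of replication, and Cdc45 and the GINS complex then turn the ring into a working helicase. E2F factors switch on many genes of this programme late in G1, when cyclin-dependent kinases relieve the hold of the pocket proteins. Genes of G2 and mitosis are switched on later by the B-Myb and FoxM1 complexes, which act through CHR elements. Many of these genes also carry CCAAT boxes, which the factor NF-Y binds. Mouse embryonic stem cells divide fast and spend little time in G1.

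Promoter letters are shown first because S phase and mitosis genes are known for different promoter elements. The 250 bases before the start site in the RefSeq table (GRCm38.p6) were searched on both strands for an E2F word (TTCCCGC, or the word TTCGCGC, or the word TTGCCGC, or the word TTGGCGC), for the CCAAT box, and for a CHR word (TTTGAA, or the word TTCGAA). No word of one element contains a whole word of another. The table held 17 of the S phase genes and 15 of the mitosis genes. An E2F word stood in 7 of the 17 S phase promoters (41.2%), in 3 of the 15 mitosis promoters and in 9.01% of the promoters of all 27025 genes. A CCAAT box stood in 70.6%, 93.3% and 37.5%, in the same order. A CHR word stood in 17.6% of the S phase promoters, in 53.3% of the mitosis promoters and in 19.6% of all. Each member with a CHR word also held a CCAAT box, so the same 17.6% and 53.3% held both. Over all genes 7.93% held both. A match is a description of letters and not a shown site of binding. The stretches printed below belong to members with the smallest adjusted p for Dox at day 5 among the S phase or the mitosis genes, run 5′ to 3′ on the gene's strand and end at the base before the start site, and capitals mark the words found. Cdc6 (plus strand, chr11:98907982-98908150) held 1 E2F word on the opposite strand, whose first base lies 138 bases before the start, and the part of its window covered by an exon of another isoform is left out. Slbp (minus strand, chr5:33652575-33652824) held 3 CCAAT boxes and Cenpe (plus strand, chr3:135212313-135212562) held 1. Cdc20 (minus strand, chr4:118437344-118437593) held 2 CCAAT boxes with a CHR word between them. The last 26 bases of the Cenpe stretch and the last 9 of the Cdc20 stretch are also annotated as exon of another isoform, and the CCAAT box of Cenpe and the Cdc20 CCAAT box nearest the start lie within them. Cdt1 and Birc5 were chosen by the same rule and held none of the words in this window.
Cdc6: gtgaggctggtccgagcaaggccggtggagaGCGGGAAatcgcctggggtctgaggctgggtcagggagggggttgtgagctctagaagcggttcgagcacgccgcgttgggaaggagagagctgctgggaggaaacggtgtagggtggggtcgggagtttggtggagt
Slbp: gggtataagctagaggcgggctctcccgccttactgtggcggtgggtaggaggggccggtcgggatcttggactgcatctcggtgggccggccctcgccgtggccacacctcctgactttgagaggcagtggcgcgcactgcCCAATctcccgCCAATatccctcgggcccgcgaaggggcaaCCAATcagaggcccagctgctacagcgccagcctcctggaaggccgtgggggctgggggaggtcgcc
Cenpe: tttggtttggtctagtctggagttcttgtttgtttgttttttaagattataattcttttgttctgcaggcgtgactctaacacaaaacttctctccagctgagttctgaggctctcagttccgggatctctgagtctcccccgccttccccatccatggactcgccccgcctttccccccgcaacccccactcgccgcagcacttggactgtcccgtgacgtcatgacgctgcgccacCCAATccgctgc
Cdc20: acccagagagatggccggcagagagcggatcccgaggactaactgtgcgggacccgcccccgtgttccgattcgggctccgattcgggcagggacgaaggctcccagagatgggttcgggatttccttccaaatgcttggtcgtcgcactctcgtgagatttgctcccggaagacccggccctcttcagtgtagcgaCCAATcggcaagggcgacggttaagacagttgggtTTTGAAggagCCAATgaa

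Libraries held 25748897 to 38128366 expected counts. Rnaseh1, which checks the labels, was 5.39-fold higher with Dox at day 0 and 2.90-fold higher at day 3 and at day 5 (adjusted p at most 1.3e-09, edgeR). The stem cell markers (Pou5f1, Nanog and 5 others) summed to 2981 to 3263 TPM, the deposited abundance scaled to transcript length and library, at day 0 and to 210 to 232 TPM at day 5. Replicate 2 of the day 0 Dox group stood apart, where CT010467.1, an rRNA gene, took 4.7614% of the counts (all others: 0.1439 to 0.4827%). Of the 40 members, 13 share exon bases with another gene, such as Gins2 with Gse1, Ccne2 with Ints8 and Kif20a with Cdc23. The strand setting of the counting is not given in the sources used here, so the counts of these 13 are uncertain to that extent. Named pseudogenes exist for 4 members, Pcna, Tyms, Ccnb1 and Ccnb2. Pcna-ps2 held 29477 counts over all libraries, 11.8% of the 249144 of Pcna. How reads were shared between gene and pseudogene was not tested. In bulk samples, fewer cells in a phase and less RNA per cell cannot be told apart.

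Members differed widely in level. On the TPM scale Pcna, the sliding clamp of the replication fork, was the highest at day 5 in control cells at 611 ± 10 TPM (SD, n = 3). Ube2c, the ubiquitin-conjugating enzyme of the anaphase-promoting complex, followed at 426 ± 6.6 TPM, and Mcm7, a helicase subunit, at 419 TPM. Orc1, the largest subunit of the origin recognition complex, was the lowest of the 40 at 20.5 TPM, below Ccne2 at 25.6 TPM. The Mcm2 to Mcm7 genes and the nucleotide synthesis genes Rrm1, Rrm2 and Tyms all stood above the licensing factors Cdc6 (43.0 TPM) and Cdt1 (130 TPM), and E2f1 was at 33.3 TPM.

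The first comparison asks how the 40 genes moved in control cells as they left the stem cell state. From day 0 to day 3, 13 of the 20 S phase genes fell and 4 rose, and 16 of the 20 mitosis genes fell and none rose by edgeR (threshold: p under 0.05 after Benjamini-Hochberg adjustment across the 17795 genes tested). Unadjusted p was under 0.05 for 17 mitosis genes, all of them lower. Over all genes 36.3% fell and 37.2% rose between these days. The median log2 fold change was -0.32 for the S phase genes and -0.33 for the mitosis genes, beside 0.016 for all genes. Summed over the S phase genes, control TPM went from 3027, 2977 and 2823 to 2726, 2663 and 2728, a difference of -8.04%. Summed over the mitosis genes, it went from 3158, 3165 and 3112 to 2518, 2498 and 2545, a difference of -19.9%. The size for the S phase genes depended on the unit. CPM here means counts scaled to the library total with TMM factors, without regard to length. In summed CPM the difference was -16.9%, beside -21.5% for the mitosis genes. TPM carries no TMM factors, and the parts of length and of these factors in the gap were not tested. Libraries of day 3 were below those of day 0 in both sums and both units.

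E2f1, the transcription factor at the head of the S phase programme, fell the most. Its CPM, scaled with TMM factors, was 104, 119 and 95.6 at day 0 and 38.0, 39.3 and 40.7 at day 3. The log2 fold change was -1.43 ± 0.073 (SE; adjusted p = 2e-12, edgeR). Cdc45, the helicase cofactor, fell from 82.6, 86.9 and 77.8 to 36.5, 36.5 and 37.0 CPM. Orc1 fell from 90.3, 94.0 and 87.1 to 53, 52.6 and 52.4 CPM, and Ccne1, one of the cyclin E genes, from 164, 160 and 128 to 90.4, 91.2 and 94.4 CPM. For these 4 genes no day 3 library reached the lowest day 0 library. The other S phase genes that fell were Mcm3, Tyms, Cdt1, Cdc6, Rrm2, Mcm10, Mcm2, Mcm6 and Mcm7, with log2 fold changes from -0.61 to -0.14. The second cyclin E gene went the other way. Ccne2 rose from 10.7, 10.7 and 11.3 CPM to 22, 23.2 and 18.9 CPM, by 0.97 ± 0.091 on the log2 scale. Gins2, a GINS subunit, rose by 0.34, Rrm1, the large subunit of ribonucleotide reductase, by 0.23, and Slbp, which binds the stem-loop of histone mRNAs, by 0.16. The pair of cyclin E genes and the pair of ribonucleotide reductase genes were therefore split, with Rrm2, the small subunit, falling by 0.47.

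Among the mitosis genes Ube2c fell the most from day 0 to day 3, from 324, 367 and 332 to 175, 185 and 190 CPM (log2 fold change -0.90 ± 0.060, adjusted p = 1e-10, edgeR). Cdk1, the kinase of mitotic entry, fell from 233, 254 and 236 to 145, 152 and 148 CPM. Kif20a, a kinesin of cytokinesis, fell from 378, 359 and 357 to 226, 223 and 233 CPM. Aurka, a spindle pole kinase, fell by 0.68 on the log2 scale, Ccnb1, the main cyclin of mitosis, by 0.53, and Tpx2, the activator of Aurka, by 0.50. Each of these fell without overlap between the days. Mki67 (0.18), Ccna2 (-0.04), Cenpf (-0.07) and Bub1 (-0.10) did not pass the test. With library size as the only scaling, the median of all genes moved from 0.016 to 0.165, Mcm7 and Cenpe lost their call with log2 fold changes of 0.007 and 0.015, and 6 uncalled members (Mcm4, Mcm5, Pcna, Ccna2, Bub1 and Cenpf) changed sign.

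**Figure D1:**
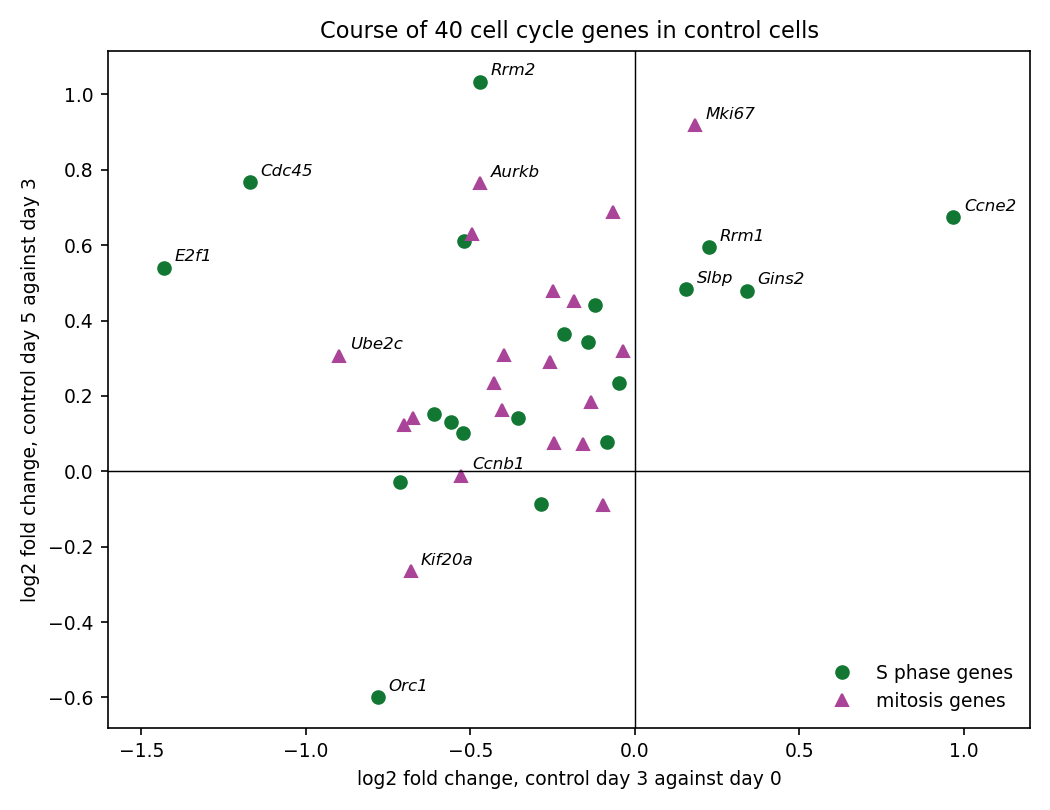
Each point is 1 gene, with its log2 fold change from day 0 to day 3 in control cells on the x axis and from day 3 to day 5 on the y axis (circles, S phase; triangles, mitosis; n = 3 libraries per day). Most genes lie at the upper left, lower at day 3 and higher again at day 5. Estimates of Orc1, Kif20a, Mcm2, Ccne1, Bub1 and Ccnb1 were negative in both steps, not all of them called. Those of Ccne2, Gins2, Rrm1, Slbp and Mki67 were positive in both.

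From day 3 to day 5 the direction turned in control cells. Of the S phase genes 14 rose and 1 fell, and of the mitosis genes 14 rose and 1 fell, against 31.7% higher and 33.1% lower over all genes. Rrm2 rose the most of the 40, from 219, 211 and 212 to 435, 441 and 437 CPM, a 2.05-fold difference (log2 fold change 1.03 ± 0.045, adjusted p = 3e-13, edgeR). Cdc45 rose by 0.77, Ccne2 by 0.67, Cdc6, the origin licensing factor, by 0.61, Rrm1 by 0.60 and E2f1 by 0.54. Orc1 was the S phase gene that fell, to 33.7, 35.6 and 34.9 CPM (log2 fold change -0.60 ± 0.053). Cdt1 (0.10) and Ccne1 (-0.03) did not pass, and their day 5 libraries lay below their day 0 libraries. Of the mitosis genes, Mki67, the nuclear protein used as a mark of dividing cells, rose from 364, 336 and 343 to 713, 589 and 669 CPM (log2 fold change 0.92 ± 0.10). Aurkb, the kinase of the chromosomal passenger complex, rose by 0.76, Cenpf, a kinetochore protein, by 0.69, Tpx2 by 0.63, Top2a, the topoisomerase that untangles chromosomes, by 0.48 and Cdc25c, the phosphatase that activates Cdk1, by 0.45. Kif20a fell further, to 186, 191 and 191 CPM, by 0.26 on the log2 scale. Summed TPM was 35.1% higher over the S phase genes and 29.7% higher over the mitosis genes, and summed CPM 24.0% and 27.4% higher. The S phase sum at day 5 was 24.2% above day 0 in TPM but 3.0% above it in CPM, where the libraries of the 2 days overlapped. For the mitosis genes the sum was 3.92% above day 0 in TPM and 0.0579% in CPM, again with overlap in CPM.

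Cells that had received Dox took a course of the same outline, shown here as values since these contrasts share libraries with those above. From day 0 to day 3, 3 S phase genes rose and 15 fell, and 16 mitosis genes fell and none rose by edgeR (36.7% of all genes higher, 35.9% lower). From day 3 to day 5, 11 S phase genes rose and 3 fell, and 13 mitosis genes rose and 2 fell (32.2% of all genes higher, 32.9% lower). The S phase genes that fell in the second step were Orc1, Ccne1 (-0.24) and Mcm2 (-0.16). Summed over the S phase genes, TPM in Dox cells was 26.4% higher at day 5 than at day 3, and over the mitosis genes it was 31.9% higher. In summed CPM these differences were 13.1% and 26.9%. With library size as the only scaling, Mcm5, Pcna and Plk1 lost their call in the first step, with log2 fold changes of 0.026, 0.024 and 0.027.

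The main comparison asks how these genes differed with Dox at day 5. Every library came from the knock-in line, so an effect of RNase H1 induction and an effect of doxycycline itself cannot be told apart. Every S phase gene had a lower estimate with Dox, and 3 of the 20 passed the test, a pair of origin licensing factors and a histone mRNA binding protein. The shift was small and even, with a median of -0.15 on the log2 scale, or -10.1%, and a range from -0.25 to -0.04, beside a median of 0.003 for all genes. By edgeR 2.34% of all genes fell and 2.39% rose at this day. Unadjusted p was under 0.05 for 15 of the 20, all lower. The share of all genes under that level was not counted, here or for the other unadjusted counts. In 16 of the 20 the highest Dox library was below the lowest control library, which 12.3% of all genes also showed.

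Cdc6 (ENSMUSG00000017499, chr11:98907801-98923940, plus strand) had 76.9, 81.4 and 79.0 CPM in the control libraries and 68.7, 70.9 and 67.2 CPM in the Dox libraries. Its log2 fold change was -0.20 ± 0.047 (SE; 95% interval -0.301 to -0.097; adjusted p = 0.017, edgeR). Slbp (ENSMUSG00000004642, chr5:33634952-33652574, minus strand) had 177, 190 and 190 CPM in the controls and 158, 164 and 155 CPM with Dox. For both genes all Dox libraries lay below all control libraries. The log2 fold change of Slbp was -0.22 ± 0.054 (adjusted p = 0.019, edgeR). Cdt1 (ENSMUSG00000006585, chr8:122568015-122573554, plus strand), which loads the Mcm ring together with Cdc6, had 156, 177 and 159 CPM in the controls and 146, 141 and 136 CPM with Dox, again without overlap. Its log2 fold change was -0.22 ± 0.058 (adjusted p = 0.033, edgeR).

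The next S phase genes missed the threshold narrowly. Pcna had 505, 556 and 541 CPM in the controls and 442, 489 and 474 CPM with Dox (log2 fold change -0.19 ± 0.054, adjusted p = 0.051, edgeR). Ccne1 had 83.8, 95.2 and 91.9 CPM against 74.8, 77.4 and 76.2 CPM (-0.25 ± 0.070, adjusted p = 0.053). Rrm2 had 435, 441 and 437 CPM against 390, 403 and 392 CPM (-0.15 ± 0.044, adjusted p = 0.064). All 3 lacked overlap between the groups. The Mcm2 to Mcm7 helicase subunits had log2 fold changes from -0.16 (Mcm6 and Mcm7) to -0.10 (Mcm2), each with lower libraries throughout and adjusted p from 0.12 to 0.21. Gins2 (-0.17), E2f1 (-0.17), Ccne2 (-0.23) and Mcm10 (-0.14), a scaffold at the origin, also had no overlap and did not pass. Libraries overlapped in the remaining 4 genes, which had the smallest differences: Cdc45 (-0.09), Tyms, the thymidylate synthase (-0.06), Orc1 (-0.06) and Rrm1 (-0.04).

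**Figure D2:**
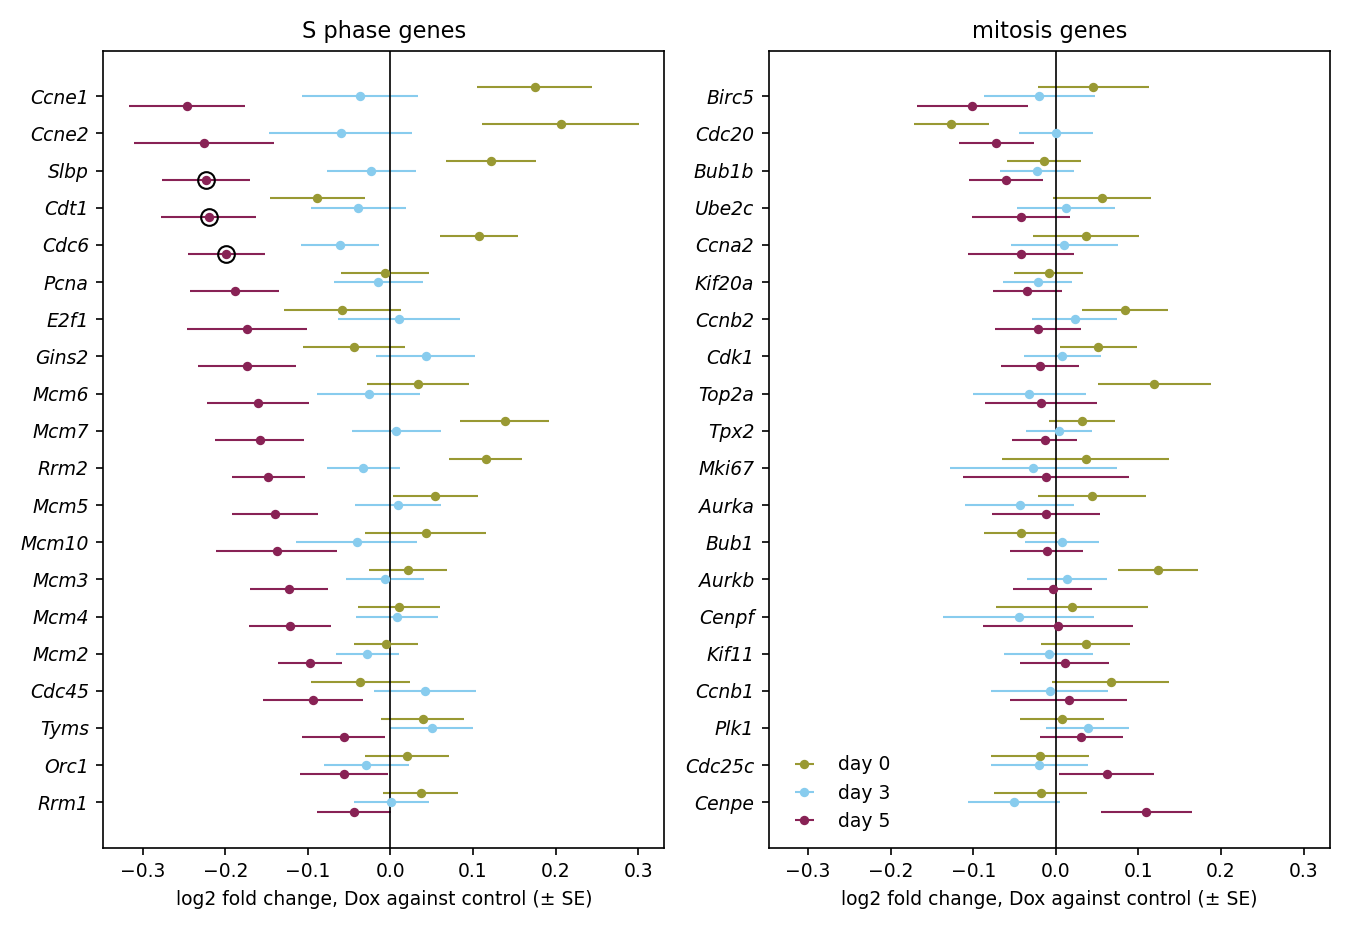
Log2 fold change of Dox against control for each of the 20 S phase genes (left) and the 20 mitosis genes (right) at day 0, day 3 and day 5, with bars for ± 1 SE (n = 3 libraries per group); rings mark adjusted p under 0.05. At day 5 all S phase points are left of 0, between -0.25 and -0.04, and the mitosis points lie on both sides, between -0.10 and 0.11.

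The number of S phase genes called at day 5 moved with the fit. All 20 estimates were negative in each of 28 other settings, with medians from -0.167 to -0.132. These settings refit the same libraries, and those without a day 0 or day 3 library keep every day 5 library. Near-equal estimates were thus largely built in and are no independent check. With the replicate number as a block 6 passed, with Ccne1 (adjusted p = 0.043, edgeR), Rrm2 (0.046) and Pcna (0.031) added. Day 5 fitted alone gave 11, or 16 with the block. Calls over all genes moved as well. Lower with Dox were 417 of 17795 genes in the main fit and 528 with the block. With day 5 alone they were 779 of 15340, or 1376 with the block. They were 264 without control replicate 2 of day 5, 209 without control replicate 3 and 198 without Dox replicate 3. None passed without control replicate 2, control replicate 3 or Dox replicate 3 of day 5, and only Cdt1 passed without Dox replicate 1, while 5 passed without control replicate 1 of day 5 or control replicate 2 of day 0, 6 without Dox replicate 3 of day 0 and 7 without control replicate 3 of day 0.

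None of the 20 mitosis genes passed at day 5 by edgeR, by DESeq2 or by limma-voom, and none had an unadjusted p under 0.05 by edgeR. Estimates were negative for 14 and positive for 6, from -0.10 to 0.11, with a median of -0.01 on the log2 scale, or -0.87%. The 2 with the smallest p are given in full. Cenpe, the kinesin that moves chromosomes along the spindle, had 128, 109 and 116 CPM in the controls and 130, 126 and 124 CPM with Dox, with overlap (log2 fold change 0.11 ± 0.056, adjusted p = 0.35, edgeR). Cdc20, the activator of the anaphase-promoting complex, had 290, 305 and 302 CPM against 278, 292 and 282 CPM, also with overlap (-0.07 ± 0.045, adjusted p = 0.49). For Mki67 the estimate was -0.01, with a 95% interval from -0.231 to 0.207, so a difference of the size seen in Cdc6 lay within its interval. For Tpx2 the interval was narrower, from -0.099 to 0.073, and for Cdk1 it was -0.121 to 0.083. With library size as the only scaling, 7 of the 20 estimates were negative and the median was 0.008.

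Over the S phase genes, summed TPM at day 5 was 3690, 3610 and 3666 in the controls and 3363, 3360 and 3336 with Dox, a difference of -8.28% with no overlap. Over the mitosis genes it was 3309, 3217 and 3280 in the controls and 3222, 3260 and 3260 with Dox, a difference of -0.658% with overlap. At day 3 the mitosis sums lay apart, at 2518, 2498 and 2545 in the controls and 2489, 2443 and 2452 with Dox (-2.35%), while in CPM they overlapped there (-0.748%). The ratio of the S phase sum to the mitosis sum in the same library was 1.118 ± 0.0037 in the controls and 1.033 ± 0.010 with Dox (SD, n = 3). That ratio was 1.074 ± 0.0082 and 1.078 ± 0.015 at day 3, and 0.935 ± 0.026 and 0.940 ± 0.031 at day 0. Libraries of the control and Dox groups did not overlap in this ratio at day 5 and overlapped at the earlier days. The ratio was not tested, as the members were chosen with earlier results known. Mitochondrial mRNAs held 58995 to 65713 TPM in the controls and 71208 to 74210 TPM with Dox at day 5. At day 3 they held 60598 to 74349 TPM in the controls and 76960 to 78781 TPM with Dox. Since TPM has a fixed total per library, these levels bear on all other genes at both days. Their part in the sums was not tested. On the CPM scale the S phase difference was -0.1431 in log2 units, against -0.1246 on the TPM scale.

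**Figure D3:**
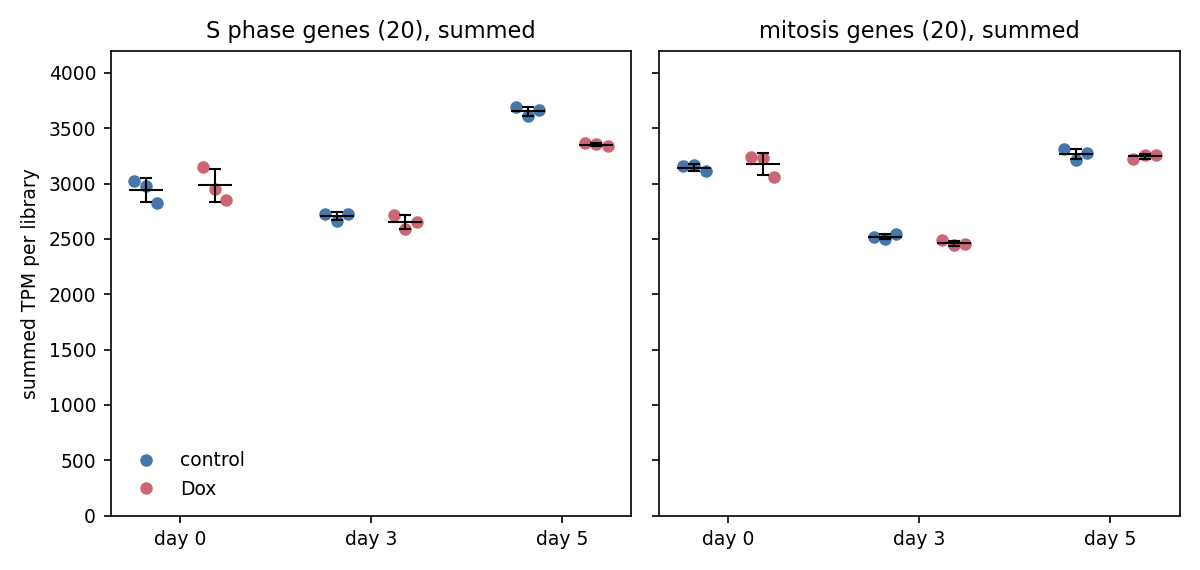
Summed TPM per library over the 20 S phase genes (left) and the 20 mitosis genes (right), by day, for control (blue) and Dox (red); points are libraries, and bars show the mean ± SD (n = 3). The S phase sums separate at day 5, 3610 to 3690 against 3336 to 3363, and the mitosis sums overlap there but lie apart at day 3, 2498 to 2545 against 2443 to 2489.

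At day 0, at the end of the Dox treatment, none of the 40 genes passed by edgeR, DESeq2 or limma-voom, while 0.292% of all genes rose and 0.747% fell. Unadjusted p was under 0.05 for 6 S phase genes, all higher with Dox, and for 2 mitosis genes. Medians were 0.035 for the S phase genes and 0.036 for the mitosis genes on the log2 scale. Rrm2 had 301, 305 and 283 CPM in the controls and 318, 329 and 316 CPM with Dox (0.12 ± 0.044, adjusted p = 0.27, edgeR). Mcm7 had 583, 603 and 504 CPM against 640, 613 and 607 CPM (0.14 ± 0.054, adjusted p = 0.28). Both lacked overlap, and in both the third control library was the lowest. Cdc20 had 308, 326 and 320 CPM in the controls and 281, 287 and 306 CPM with Dox (-0.13 ± 0.045, adjusted p = 0.22), and Aurkb 118, 119 and 113 CPM against 121, 128 and 131 CPM (0.12 ± 0.048, adjusted p = 0.28). Without control replicate 3 the S phase median was -0.014, and without Dox replicate 3 Top2a passed (log2 fold change 0.22 ± 0.053, adjusted p = 0.041). Without the rRNA-rich Dox replicate 2 the medians were 0.022 and -0.020.

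At day 3 none of the 40 passed by edgeR, DESeq2 or limma-voom and none had an unadjusted p under 0.05 by edgeR, on a background of 0.0169% higher and 0% lower. Estimates lay between -0.06 and 0.05 on the log2 scale in all 40. Cdc6 had 52.4, 50.7 and 52.3 CPM in the controls and 50.8, 47.6 and 50.5 CPM with Dox (-0.06 ± 0.048, adjusted p = 1.0). Tyms had 79.8, 82.0 and 83.0 CPM against 86.6, 81.2 and 85.5 CPM, Cenpe 105, 102 and 103 CPM against 105, 96.9 and 97.6 CPM, and Plk1, the polo kinase, 189, 195 and 199 CPM against 198, 203 and 199 CPM. Libraries overlapped in all 4. Rnaseh1 was 2.90-fold above control at this day, as at day 5.

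Whether the Dox effect itself differed between days was tested as a difference of differences. For day 5 minus day 0, 5 S phase genes passed, all with a lower effect at day 5, against 1.52% lower and 1.76% higher over all genes. Ccne1 differed by -0.42 ± 0.099 on the log2 scale (adjusted p = 0.024, edgeR), from 0.17 at day 0 to -0.25 at day 5. Slbp differed by -0.35 ± 0.076 (adjusted p = 0.016), Cdc6 by -0.31 ± 0.066 (0.014), Mcm7 by -0.30 ± 0.077 (0.040) and Rrm2 by -0.26 ± 0.062 (0.025). In each of these 5 the estimate was above 0 at day 0 and below 0 at day 5. Day 0 control values of Ccne1 were 164, 160 and 128 CPM against 171, 172 and 168 CPM with Dox, with the third control library the lowest of the 6, and all 5 genes passed when that library was left out. None of the 5 passed without Dox replicate 3 of day 5. Without control replicate 3 of that day Cdc6 alone passed, and Cdc6 and Slbp passed without control replicate 2 or without Dox replicate 1.

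No mitosis gene passed for day 5 minus day 0 by edgeR, DESeq2 or limma-voom, none had an unadjusted p under 0.05 by edgeR, and the smallest adjusted p belonged to Aurkb (-0.13 ± 0.068, adjusted p = 0.39). For day 5 minus day 3, none of the 40 passed by any of these tools, against 0.354% higher and 0.466% lower over all genes. There the unadjusted p was under 0.05 for 6 S phase genes and for no mitosis gene. All 20 S phase estimates were negative in that contrast, with a median of -0.14, and Slbp had the smallest p (-0.20 ± 0.076, adjusted p = 0.40). Gins2 followed (-0.22 ± 0.084, adjusted p = 0.42). Of the 3 genes called at day 5, Cdc6 and Slbp thus passed against day 0, and none passed against day 3.

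**Figure D4:**
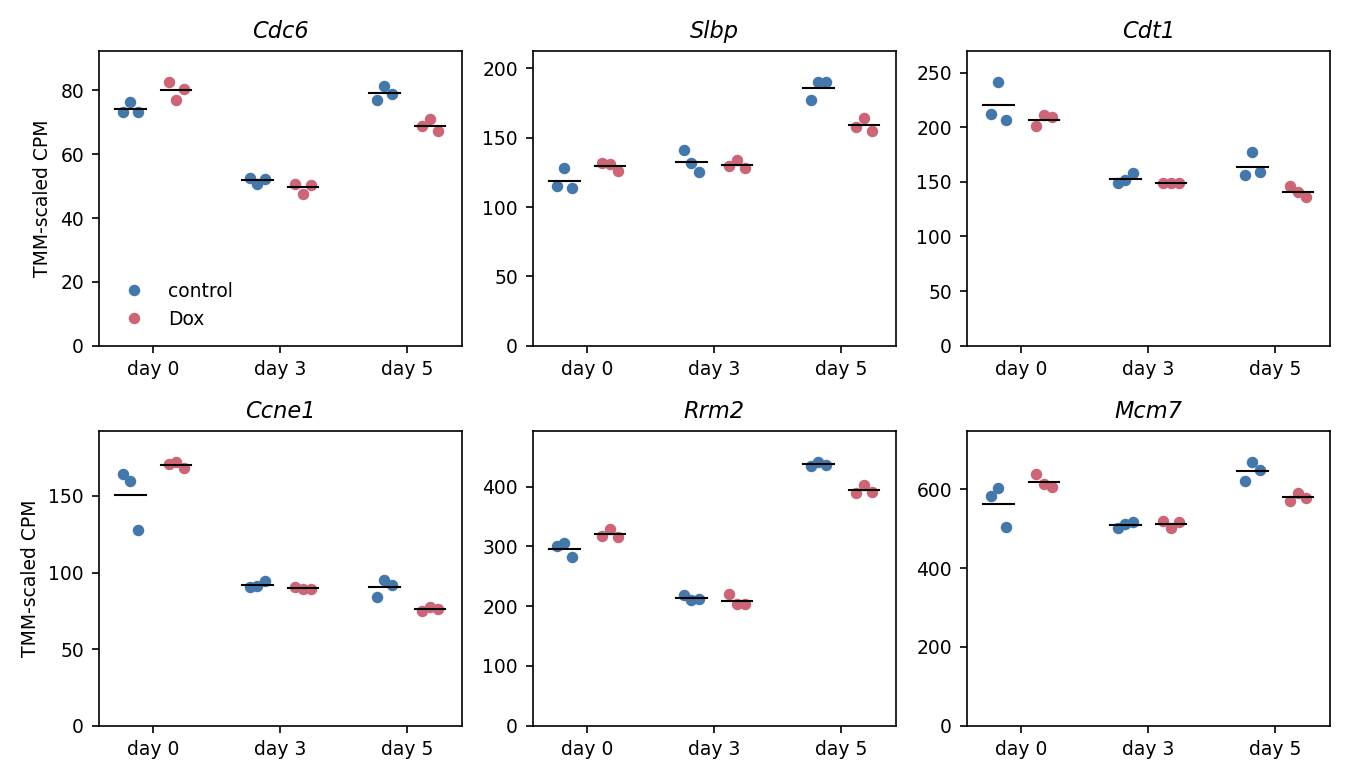
TMM-scaled CPM of Cdc6, Slbp, Cdt1, Ccne1, Rrm2 and Mcm7 in each of the 18 libraries, by day, for control (blue) and Dox (red), with a line at each group's mean (n = 3). In all 6 genes the day 5 Dox libraries lie below the day 5 control libraries, for Cdc6 at 67.2 to 70.9 against 76.9 to 81.4.

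Other genes of the pathway were taken from fixed lists at day 5, when 2.34% of all genes fell and 2.39% rose by edgeR. Of 49 further replication genes 3 fell and none rose by edgeR, 14 had an unadjusted p under 0.05, all lower, and the median was -0.088. Pclaf, a partner of the Pcna clamp, had 238, 240 and 237 CPM in the controls and 195, 204 and 203 CPM with Dox (log2 fold change -0.25 ± 0.068, adjusted p = 0.043, edgeR). It was higher with Dox at day 0 (0.36 ± 0.075, adjusted p = 0.027). Pold1, the catalytic subunit of a replicative polymerase, fell by 0.20. Of 48 further mitosis genes 1 fell, Ckap2, a spindle protein (-0.33 ± 0.058, adjusted p = 0.0019, edgeR). Among the 48, 8 had an unadjusted p under 0.05, all lower, and the median was -0.017. Of 54 replication-dependent histone genes, whose mRNAs mostly lack poly(A) tails and need Slbp for their processing, 1 rose and none fell, with a median of 0.038. The further genes had a lower median for replication than for mitosis, as the 40 members did. The lists were chosen with earlier results of these data known and read in the same libraries, so they are no independent check.

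Some regulators of the step from G1 into S phase had larger fold changes than any member at day 5, while the medians of their lists were closer to 0 than that of the S phase genes. Of 12 G1 cyclins, kinases, pocket proteins and Myc genes 4 fell and 1 rose, with a median of -0.101. Myc, a driver of growth and cell cycle entry, had 31.0, 30.8 and 29.4 CPM in the controls and 15.2, 12.1 and 10.7 CPM with Dox (-1.26 ± 0.28, adjusted p = 0.010, edgeR). Ccnd2 fell by 0.99 and Cdk6 by 0.81, a D cyclin and one of the kinases that D cyclins activate. Another D cyclin, Ccnd1, was higher, with 156, 148 and 146 CPM in the controls and 201, 211 and 218 CPM with Dox (0.49 ± 0.10, adjusted p = 0.0063). The groups did not overlap in Myc or in Ccnd1. Of 7 CDK inhibitors Cdkn1b (p27) rose by 0.37 and Cdkn1a (p21) fell, from 114, 122 and 122 CPM to 73.0, 64.3 and 64.5 CPM (-0.83 ± 0.076, adjusted p = 2.2e-06), with a list median of 0.055. Of 16 E2F, DREAM and B-Myb genes 2 fell, E2f3 (-0.26) and Mybl2, the gene of B-Myb (-0.20), with a median of -0.041. Of 20 checkpoint genes 1 fell and none rose by edgeR, with a median of -0.026. Of 16 p53 target genes 10 fell and none rose, with a median of -0.40; Plk2 (-1.04) and Phlda3 (-0.86) differed most, and Cdkn1a is on this list too.

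**Figure D5:**
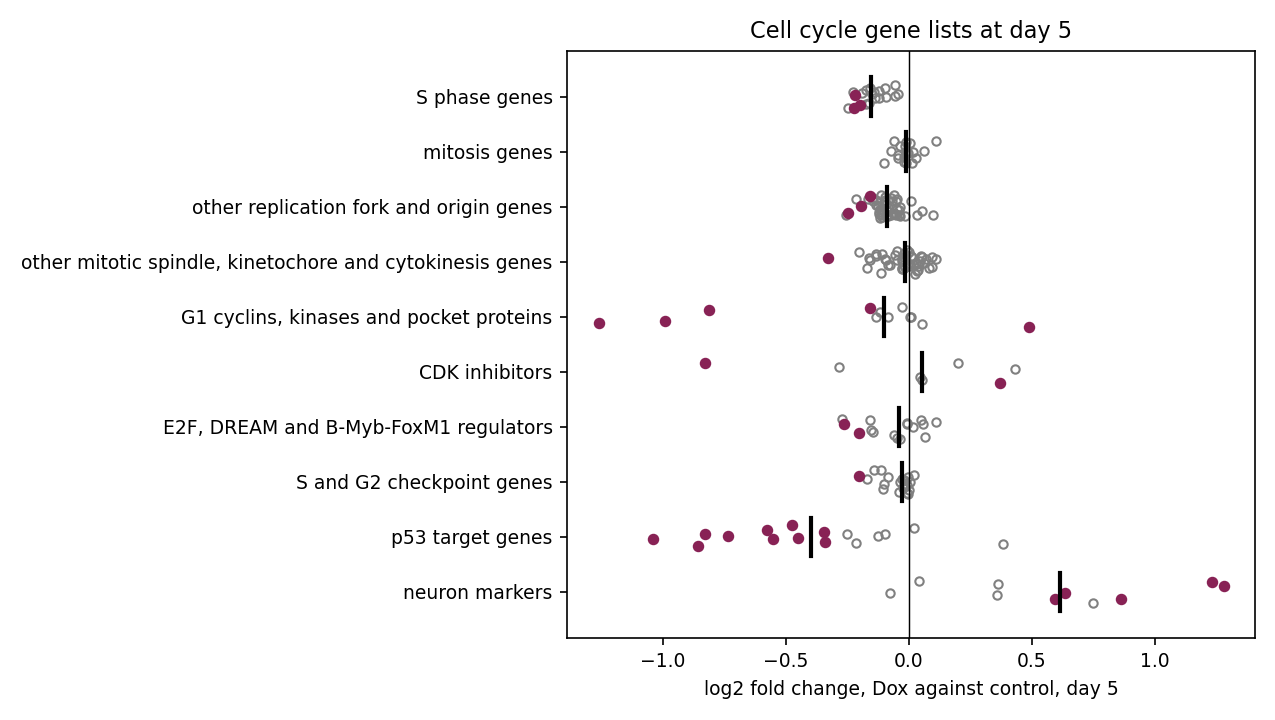
Log2 fold change of Dox against control at day 5 for every tested gene of the S phase and mitosis members and of 8 other lists; filled points have adjusted p under 0.05, open points do not, and black lines are medians. The S phase genes lie in a narrow band around their median of -0.15, the mitosis genes around -0.01, and the p53 targets and G1 genes spread more widely.

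Markers of cell types moved beside these results at day 5. Of 10 neuron markers 5 rose and none fell, led by Elavl3 (1.28), Elavl4 (1.23) and Map2 (0.86), and their summed level was 48.9 to 53.6 TPM in the controls and 75.8 to 84.5 TPM with Dox. The same list summed to 195 to 239 TPM in the stem cells of day 0. None of the 10 was at 0 in a day 5 library. Of 4 neural progenitor markers none rose and 1 fell, with sums of 544 to 549 TPM in the controls and 541 to 563 TPM with Dox. Of 7 stem cell markers Nanog rose (0.79, adjusted p = 0.017, edgeR), at 0.875 to 1.56 CPM in the controls and 1.79 to 2.65 CPM with Dox. Of 6 somite and presomitic mesoderm markers Pax3 rose (0.76) and Meox1 fell (-0.50), of 4 endoderm markers Foxa2 fell (-1.34), and of 5 endothelium and blood markers tested Tek rose (1.82). The summed level with Dox against control was 74.1 to 90.8 against 90.5 to 104 TPM for the mesoderm list, 3.01 to 4.92 against 4.07 to 5.37 TPM for the endoderm list and 1.51 to 1.83 against 0.80 to 1.46 TPM for the endothelium and blood list. No primitive streak or fibroblast marker passed. Neurons have left the cell cycle, and the part of these markers in the S phase values was not tested.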

How the data were processed

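Poly(A) RNA libraries used 1 µg of RNA, a kit that keeps strand and 10 PCR cycles, per the labels' protocols. Build GRCm38 and the tools DESeq2 1.38.2, RSEM 1.3.3, STAR 2.7.10a and Trimmomatic are named, per the submitters' processing notes; their settings are not given in the sources used here. The authors deposited RSEM tables of expected counts, estimated per gene and not scaled to depth. The deposited TPM values, scaled to transcript length and library, were used for levels and sums. The deposited FPKM values were not used. IDs were given symbols from GENCODE M21 (55141 of 55401 matched; the other 260 held 0.0053% of counts).

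Counts were rounded (6.538 to 7.494% of values were not whole) and fitted once over all 18 libraries with edgeR 4.0.16 in R 4.3.3: TMM factors (0.894 to 1.063), filterByExpr defaults (minimum count 10, total 15; 17795 genes), a mean for each of 6 groups, 12 residual degrees of freedom, quasi-likelihood tests and Benjamini-Hochberg adjustment over all genes. The step was tested on simulated data. Alternatives were a replicate block, DESeq2 1.42.0, limma-voom (limma 3.58.1), 2 other scalings (library size alone and RLE), 2 other filters (none, or 1 CPM or more in 3 libraries), no histone or rRNA genes, each day alone, and each library left out. Sums over genes have no test. The batch in the labels carries the same number as the replicate, so numbers pair libraries; deviations from group means correlated between same-numbered control and Dox libraries at 0.206 to 0.331 at day 0, 0.010 to 0.036 at day 3 and 0.022 to 0.051 at day 5. Nothing says that replicates are separate cultures, so the spread behind each p may be technical. Replicates differed more at day 0 than later, and 1 spread per gene served all days.

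Members, lists, motifs and tests were chosen with earlier results of these data known. In each contrast members past the threshold were named, per-library values were given for up to 6 S phase and 6 mitosis genes per direction (4 between days), and where none passed for the 2 with the smallest p; up to 3 called genes were named per list. Pcna, Ccne1, Rrm2 and the remaining members at day 5 were given to account for all 40. Some genes of these lists are not reported here.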

Additional observations from a re-analysis of the deposited data

Results flagged for a closer look

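The Dox effect of 5 S phase genes differed between day 5 and day 0 by the test of the difference in edgeR. The differences on the log2 scale were -0.421 for Ccne1, -0.346 for Slbp, -0.306 for Cdc6, -0.297 for Mcm7 and -0.264 for Rrm2. All 5 had a positive estimate at day 0, where none passed, and a negative one at day 5, where Slbp and Cdc6 passed. No mitosis gene showed such a difference, and groups of 3 libraries were too small to look for single libraries far from the rest.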

How the results depend on the processing

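For Dox at day 5, the 3 S phase calls became 6 with the replicate block, 6 with DESeq2, 5 with limma-voom, 5 with at least 1 CPM in 3 libraries, 11 with each day alone and 16 with each day alone and the replicate block; leaving out 1 library gave 0 to 7, with 0 when control replicate 2 or 3 or Dox replicate 3 of day 5 was left out. For day 5 minus day 0, the 5 calls became 3 with no filter, and 0 to 6 with 1 library left out. Calls over all genes moved in these fits too. At day 5, 417 of 17795 genes were lower in the main fit. With each day alone 779 of 15340 were lower, and 1376 with the replicate block added. The cause was not tested, beyond the fewer samples in the fits that leave one out. Mitosis calls at day 0 were 0 to 1 over the fits that leave out a library. The summed S phase difference at day 5 was -0.1431 log2 units in CPM against -0.1246 in TPM, and the summed mitosis difference at day 3 was -0.0108 against -0.0343. Between days, summed CPM in place of TPM gave -16.9, 24.0 and 3.0% for the S phase genes in control cells (day 3 over 0, 5 over 3 and 5 over 0) and -19.9, 13.1 and -9.42% in Dox cells, the last against 12.3% in TPM and so of opposite sign. For the mitosis genes it gave -21.5, 27.4 and 0.0579% in control cells, 26.9% for day 5 over 3 in Dox cells, and -3.43% for day 5 over 0 in Dox cells, of opposite sign to the 2.24% in TPM. Totals of called members in the remaining settings stayed within 1.5 times the main value, but some small counts in 1 direction did not: S phase genes lower from day 3 to day 5 in control cells went from 1 to 2 with DESeq2, limma-voom and the 1 CPM filter, mitosis genes higher from day 0 to day 3 from 0 to 1 with library size alone and with no filter, in control and in Dox cells, and mitosis genes lower from day 3 to day 5 in Dox cells from 2 to 1 with DESeq2, RLE, library size alone and no filter. Leaving out 1 library moved some of these counts by 1 as well. Medians near 0 changed sign: at day 0 for the S phase genes (-0.014) and the mitosis genes (-0.009) without control replicate 3 and for the mitosis genes without Dox replicate 2 (-0.020), and with library size alone for the mitosis genes at day 5 (0.008) and for day 5 minus day 3 (0.007, or 0.003 without day 3 control replicate 1). No gene called at day 5 or for day 5 minus day 0 changed sign, and the block moved no other count of member calls by over 1.5 times. No member had less than 10.7 CPM in any library, and 3 libraries in each group limit the precision of these values.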
